A study of Homo sapiens with 9 samples.

Results

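MS023 and GSK591, inhibitors of protein arginine methylation, were set directly against each other in A549 cells, a long-established epithelial line grown from a lung adenocarcinoma of a human donor. Cells received GSK591, an inhibitor of PRMT5, or MS023, which blocks the type I enzymes, each at 1 µM for 7 days, and total RNA freed of ribosomal RNA was sequenced as paired-end reads. The comparison takes the 3 MS023 and the 3 GSK591 libraries, chosen by their labels, 6 of the 9 libraries of the study. The remaining 3 libraries came from cells given the solvent DMSO and are used only to show where the untreated level of a gene lies. Both treated groups started from 0.4 times 1e5 cells a plate, so seeding did not differ between the inhibitors, whereas DMSO plates started from 0.2 times 1e5 cells. All 9 libraries come from this 1 line. RNA was taken in triplicate, and since nothing in the labels ties the replicates to separate cultures, p-values here measure the spread between these libraries.

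Arginine residues can carry methyl groups in symmetric or asymmetric form. PRMT5, working with its partner WDR77 and with adaptors such as CLNS1A, RIOK1 and COPRS, places the symmetric mark, among others on the Sm proteins at the core of the spliceosome and on histones. PRMT1, CARM1 and other type I enzymes place the asymmetric mark, for instance on RNA-binding proteins rich in glycine and arginine and on histone tails that gene activation depends on. Both classes draw on the same methyl donor and can act on the same proteins, and loss of type I activity is known to raise the symmetric mark on some of them. PRMT5 inhibition is known for arrest of the cell cycle with a p53 response and for changes of splicing. The direct comparison sets RNA levels under one inhibitor against those under the other at equal dose, time and seeding.

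The 6 libraries held 31398075 to 51244525 counts, and the 3 DMSO libraries 33001030 to 47387808. Levels are given in CPM, counts scaled to a common library total with TMM factors, which compare libraries but not genes of different length. Every log2 change is MS023 minus GSK591, fitted by edgeR to all 9 libraries, with its standard error, values in CPM carry the SD over 3 libraries, and a gene counts as called at a Benjamini-Hochberg adjusted p under 0.05 over all genes tested. On the first principal component of the 6 libraries, 79.6% of the variance, the inhibitors separated. GSK591 replicate 3 stood apart in its RNA composition, since mitochondrial rRNA, an RNA that depletion should remove, made up 927.5 CPM against 0.401 to 20.1 in the other 8. Its share of counts in protein-coding genes was 89.6% against 92.4% to 94.7%. The line's own markers were present. The keratins KRT8 and KRT18 stood at 2576 ± 19.3 CPM and 1288 ± 129.8 CPM (SD, n = 3) in MS023, and at 4083 ± 98.5 CPM and 1952 ± 14.4 CPM in GSK591. No count fell on CDKN2A or CDKN2B in any of the 9 libraries. The leukocyte gene PTPRC had 0 to 2 counts a library, and the alveolar genes SFTPC, NKX2-1 and SFTPB had 2 to 7, 0 to 10 and 9 to 21. Other markers of these cell types were read: 6 of 12 leukocyte and 14 of 19 lung markers passed the filter on low counts, as given below.

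Of 18292 genes tested, 11955 (65.4%) were called between the inhibitors, 6151 higher in MS023 (33.6%) and 5804 lower (31.7%). The median log2 change over all genes tested was 0.00. Most of these differences were small: 6637 of the called genes (55.5%) differed by less than 1.5-fold, and the median size over called genes was 0.51 on the log2 scale. Large differences were uneven in direction. At least 2-fold, 913 genes were higher in MS023 (4.99%) and 1963 lower (10.7%), and at least 4-fold, 179 were higher and 585 lower. The libraries of the groups did not overlap in 12900 genes (70.5%), 11679 of them called. Where a gene is given below by library, its groups did not overlap unless overlap is named. In bulk RNA, more cells with a transcript and more of it per cell cannot be told apart. In the authors' FPKM, tested with limma on 12953 genes that passed 1 FPKM in 3 libraries, higher genes made up 63.7% of the calls against 51.5% in counts. At least 2-fold, 394 were lower and 388 higher on log2(FPKM + 1), and 655 and 630 with 0.1 added in place of 1. These are fewer genes than in counts, with weak ones left out, and adding 1 understates changes of low genes. Counts with a filter of 1 CPM in 3 libraries gave 1170 at least 2-fold lower and 625 higher.

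**Figure D1:**
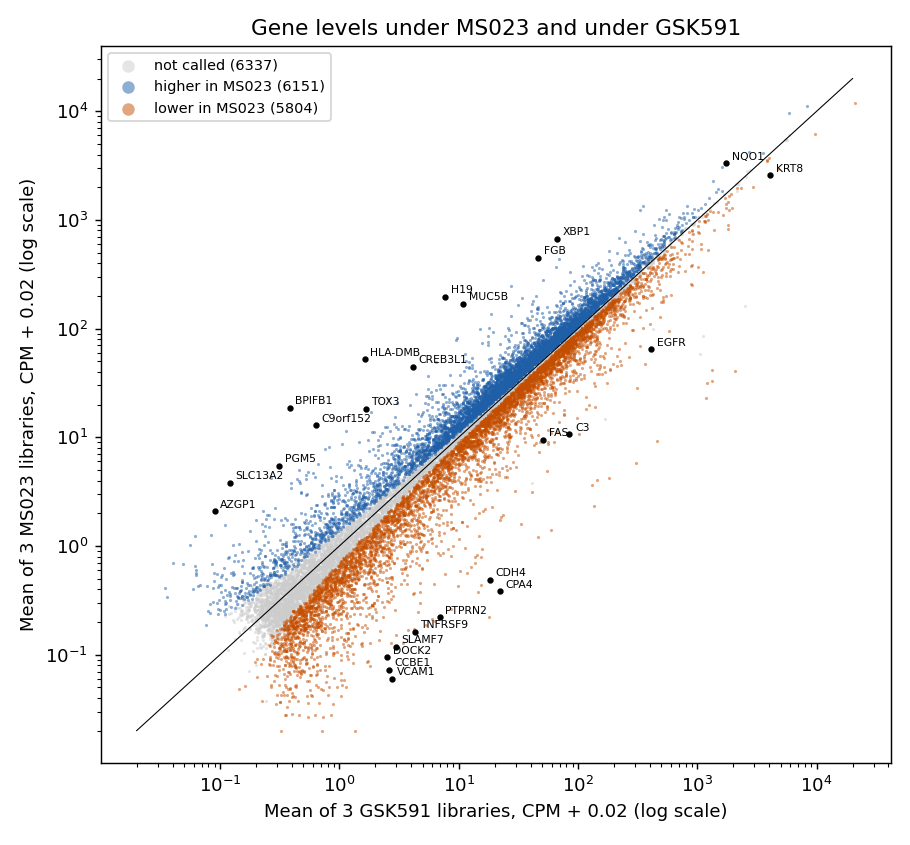
Mean level of each of the 18292 genes tested in the 3 GSK591 libraries (x axis) and the 3 MS023 libraries (y axis), in CPM plus 0.02 on log scales, with the line of equal levels. Blue points are the 6151 genes called higher in MS023, orange points the 5804 called lower, grey points those not called, and black points carry a name; BPIFB1 and HLA-DMB lie far above the line, and VCAM1 and CPA4 far below it.

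The excess of large decreases was marked among weakly expressed genes, genes of long span and long noncoding RNAs, but was not confined to them. When protein-coding genes were cut into 4 equal groups by level, 365 in the lowest group were at least 2-fold higher in MS023 and 833 at least 2-fold lower, whereas the highest group had 109 each way. The groups between had 172 higher and 205 lower, and 74 higher and 105 lower. Cut likewise by genomic span, the longest group had 135 at least 2-fold higher and 444 lower, and the shortest 243 and 276. From shorter to longer, the groups between had 173 higher and 253 lower, and 169 higher and 279 lower, so decreases were in excess at every span. Among 1858 long noncoding RNAs 71 were at least 2-fold higher and 364 at least 2-fold lower, and of all calls 209 were higher and 647 lower, with a median log2 change of -0.34. Over calls of any size, protein-coding genes split the other way, with 5615 of 14202 higher and 4518 lower. Whether antisense or overlapping transcription adds to the noncoding counts was not tested, because the strand setting of the counting is not given in the sources used here. Both mitochondrial rRNAs were called lower in MS023 (median -5.72), but of the GSK591 libraries only replicate 3 held them at a high level.

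The enzymes that the inhibitors act on differed little in RNA. Of 11 measured PRMT enzymes and PRMT5 partners 4 were higher in MS023 (36.4%), 3 lower (27.3%) and 4 not called, with a median of 0.02. These shares are near the 33.6% and 31.7% over all genes, which stand as the background for every list below. In the authors' FPKM, tested with limma, the same genes leaned upwards, with 6 higher, 1 lower and a median of 0.16. PRMT1 (ENSG00000126457, hg19 chromosome 19, 50179043 to 50192286), which carries out most asymmetric methylation in many cells, stood at 176, 194 and 188 CPM in the MS023 libraries and 133, 121 and 127 CPM in the GSK591 libraries. All MS023 libraries lay above all GSK591 libraries, a 1.46-fold difference (log2 0.55 ± 0.05, edgeR adjusted p = 1.73e-07), and DMSO was at 172 ± 9.07 CPM. CARM1 (ENSG00000142453, hg19 chromosome 19, 10982189 to 11033453), the type I enzyme that methylates histone H3 and splicing factors, was higher with a log2 change of 0.51 ± 0.06 (edgeR adjusted p = 2.47e-06). Its level was 75.3 ± 4.84 CPM in MS023, 53 ± 2.76 CPM in GSK591 and 61.4 ± 4.60 CPM in DMSO. PRMT3, a type I enzyme that methylates a ribosomal protein, was 1.16-fold lower (log2 -0.22 ± 0.04, edgeR adjusted p = 0.000280).

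PRMT5 itself (ENSG00000100462, hg19 chromosome 14, 23389720 to 23398794) had 67.8, 75.3 and 69.9 CPM in MS023 and 83.0, 78.5 and 81.0 CPM in GSK591. The groups did not overlap and MS023 was 1.14-fold lower (log2 -0.19 ± 0.05, edgeR adjusted p = 0.00314), but the authors' FPKM gave a log2 difference of 0.064 in the other direction that did not pass (limma adjusted p = 0.399). PRMT2 also changed sign between the measures, from -0.11 ± 0.04 in counts (edgeR adjusted p = 0.0275) to 0.24 in FPKM (limma adjusted p = 0.00165). Its call in counts also ended without GSK591 replicate 1 or 2 (edgeR adjusted p = 0.0719 and 0.0644) or MS023 replicate 2 or 3 (0.102 and 0.0874). Of the PRMT5 partners, COPRS, which ties PRMT5 to histones, was higher with a log2 change of 0.20 ± 0.05 and WDR77 with 0.14 ± 0.05 (edgeR adjusted p = 0.00155 and 0.0301), and the WDR77 groups overlapped. The WDR77 call ended without GSK591 replicate 1 or 2 (edgeR adjusted p = 0.114 and 0.105) or MS023 replicate 1 or 3 (0.0875 and 0.139). CLNS1A, RIOK1, PRMT7 and PRMT10 were not called, with log2 values of 0.07, 0.02, -0.08 and -0.04, but in FPKM CLNS1A was higher by 0.16 on the log2 scale (limma adjusted p = 0.0155).

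Genes of the methyl donor cycle leaned a little higher in MS023. Of 11 measured genes of S-adenosylmethionine and methylthioadenosine metabolism 6 were higher (54.5%) and 2 lower (18.2%), with a median of 0.16. Over all genes the shares were 33.6% and 31.7%. SMS, which makes spermine, was 1.51-fold higher (log2 0.59 ± 0.04, edgeR adjusted p = 4.94e-09). MTAP, which recycles methylthioadenosine, lies next to the CDKN2A locus and was 1.31-fold lower (log2 -0.39 ± 0.08, edgeR adjusted p = 0.000854) at 6.71 ± 0.545 CPM in MS023 and 8.80 ± 0.260 CPM in GSK591, a call that was not met in FPKM (limma adjusted p = 0.512). MTAP had 234 to 420 counts a library. Whether these reads come from an intact MTAP gene was not tested, so they do not show that the line expresses it. MTR, methionine synthase, was lower with a log2 change of only -0.12 ± 0.04 (edgeR adjusted p = 0.0186). That call ended without GSK591 replicate 1, MS023 replicate 1 or MS023 replicate 3 (edgeR adjusted p = 0.0830, 0.0696 and 0.0534). It also ended without a filter (0.0869), with libraries thinned to 1 depth (0.0516) and in FPKM, where the log2 change was -0.020 (limma adjusted p = 0.766).

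Targets of p53, the tumour suppressor that answers DNA damage and splicing stress, were lower in MS023 almost without exception. Of 40 measured targets 39 were lower and none higher, against 31.7% lower and 33.6% higher over all genes, and the median was -1.07. Summed over the targets, the level was 1914 to 1990.0 CPM in MS023, 4187 to 4346 CPM in GSK591 and 2163 to 2237 CPM in DMSO. These and all other lists were assembled with earlier results of these data known, so their counts describe the comparison and do not independently support a direction.

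FAS (ENSG00000026103, hg19 chromosome 10, 90750414 to 90775542), the death receptor, had 9.60, 9.63 and 9.07 CPM in the MS023 libraries and 47.6, 54.8 and 51.6 CPM in the GSK591 libraries. The highest MS023 library lay far below the lowest GSK591 library, a 5.44-fold difference (log2 -2.44 ± 0.06, edgeR adjusted p = 6.31e-14), and DMSO stood near MS023 at 12.9 ± 0.332 CPM. CDKN1A (ENSG00000124762, hg19 chromosome 6, 36644305 to 36655116), the p21 inhibitor of cyclin-dependent kinases, had 54.7, 55.8 and 55.0 CPM against 266, 267 and 264 CPM. That was 4.82-fold lower in MS023 (log2 -2.27 ± 0.04, edgeR adjusted p = 1.12e-14) with DMSO at 58.5 ± 3.55 CPM. SPATA18, which acts in mitochondrial quality control, showed the largest change of the list, at 2.07 ± 0.315 CPM in MS023 and 15.9 ± 0.729 CPM in GSK591 (log2 -2.93 ± 0.09, edgeR adjusted p = 1.81e-12). MDM2, the ligase that degrades p53, was lower as well (175 ± 5.16 CPM against 513 ± 29.6 CPM, log2 -1.55 ± 0.05, edgeR adjusted p = 7.3e-13).

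Pro-apoptotic targets differed in the size of their change. BAX was lower with a log2 change of -0.69 ± 0.04 (edgeR adjusted p = 1.97e-09), whereas BBC3, which encodes PUMA, had 10.8, 12.7 and 12.2 CPM in MS023 and 13.6, 13.1 and 13.6 CPM in GSK591 and was not called (log2 -0.18 ± 0.08, edgeR adjusted p = 0.0718). The BBC3 change passed without MS023 replicate 2 (edgeR adjusted p = 0.0385), with only the 6 libraries (0.0176) and with libraries thinned to 1 depth (0.0301). It also passed with a filter of 1 CPM in 3 libraries (0.0335) and with total counts (0.0466). In each of these settings all 40 targets were lower. BBC3 was lower in filtered FPKM too (limma adjusted p = 0.0432), and in the remaining settings it was not called. GDF15, a stress cytokine, had a log2 change of only -0.27 ± 0.06 (edgeR adjusted p = 0.000613), and both inhibitors lay above the DMSO level of 30.0 ± 2.77 CPM, at 65.5 ± 3.02 CPM in MS023 and 79.2 ± 3.26 CPM in GSK591. Among 6 regulators of p53, 3 were higher and 2 lower. MDM4, which blocks p53, and the ubiquitin ligase RFWD2 (COP1) were higher with log2 changes of 0.45 ± 0.04 and 0.33 ± 0.04 (edgeR adjusted p = 6.87e-08 and 6.47e-06).

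Histone genes of S phase were higher in MS023 almost throughout. These genes are transcribed with DNA replication, and their mRNAs normally end in a stem-loop instead of a poly(A) tail, so libraries made from rRNA-depleted RNA with random hexamers record them. Of 61 measured members 58 were higher in MS023 and 1 lower, with a median of 1.49. Their summed level was 7784, 7012 and 7067 CPM in the MS023 libraries, 2998, 2525 and 2602 CPM in the GSK591 libraries and 7931 to 8687 CPM in DMSO. All 4 linker histones (median 1.53), all 14 H2A genes (1.45) and all 12 H3 genes (1.74) were higher, as were 16 of 18 H2B (1.35) and 12 of 13 H4 genes (1.49). HIST2H2BC was the 1 member called lower (log2 -0.69 ± 0.27, edgeR adjusted p = 0.0366), a call that ended without any 1 of the 6 libraries other than MS023 replicate 2 (edgeR adjusted p = 0.0529 to 0.150) and with a replicate block (0.0553). It had no gene class in GENCODE and only 54 counts in MS023 and 80 in GSK591. HIST2H2BD, classed as a pseudogene, and HIST1H4PS1 were not called. Many of these genes are near-identical copies, so the split of reads between single members is uncertain.

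HIST1H1B (ENSG00000184357, hg19 chromosome 6, 27834570 to 27835359), which encodes a linker histone and is now named H1-5, had 180.4, 162 and 164 CPM in MS023 and 44.2, 38.2 and 41.2 CPM in GSK591. The groups were 4.10-fold apart (log2 2.04 ± 0.06, edgeR adjusted p = 9.09e-13), and DMSO at 199 ± 12.6 CPM lay just above the MS023 libraries. The largest change of the list was that of the H4 gene HIST1H4L, at 50.7 ± 7.77 CPM in MS023 against 11.4 ± 0.949 CPM (log2 2.16 ± 0.13, edgeR adjusted p = 1.13e-09). Promoters of this family are known for CCAAT boxes, which bind NF-Y. In RefSeq promoter windows from 250 bases before to 50 after the start, CCAAT on either strand was found for 23 of 25 matched histone genes (92.0%) and for 36.2% of 12396 matched genes among those tested. Motif shares of lists, here and below, cover every matched member whatever its change. They describe which genes were listed and lend no support to a difference between the inhibitors. The 250 bases before the start of H1-5 (chr6:27867589-27867838, minus strand, GRCh38.p14, from RefSeq) are shown because they hold 2 such boxes, at 66 and 53 bases upstream and on opposite strands, marked by capitals.
H1-5: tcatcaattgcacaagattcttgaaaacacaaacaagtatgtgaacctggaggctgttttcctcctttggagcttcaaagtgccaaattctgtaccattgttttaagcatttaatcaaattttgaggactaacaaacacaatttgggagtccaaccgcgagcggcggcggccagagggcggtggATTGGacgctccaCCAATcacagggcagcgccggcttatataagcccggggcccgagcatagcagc

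Genes of DNA replication and the G1/S transition followed. Of 51 measured genes 48 were higher in MS023 and 1 lower, with a median of 0.74, and their summed level was 4483 to 4506 CPM in MS023, 2746 to 2894 CPM in GSK591 and 4557 to 4697 CPM in DMSO. The transcription factors E2F8 and E2F2 led. E2F2 (ENSG00000007968, hg19 chromosome 1, 23832922 to 23857712), an activator of S phase genes, had 33.1, 35.5 and 33.4 CPM in MS023 and 14.3, 11.5 and 13.4 CPM in GSK591, with no overlap (log2 1.38 ± 0.07, edgeR adjusted p = 1.43e-10). E2F8, a repressor that E2F activators induce, was 2.89-fold higher (log2 1.53 ± 0.07, edgeR adjusted p = 4.16e-11). RRM2, a subunit of the reductase that makes deoxynucleotides, stood at 267 ± 4.41 CPM in MS023 and 125 ± 2.77 CPM in GSK591 (log2 1.09 ± 0.04, edgeR adjusted p = 1.21e-11), and CDC45, part of the replicative helicase, at 32.9 ± 0.283 CPM and 12.8 ± 0.875 CPM (log2 1.36 ± 0.06, edgeR adjusted p = 3.4e-11).

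CCNE1, the cyclin that drives entry into S phase, went against its list at 27.4, 29.1 and 28.9 CPM in MS023 and 32.8, 31.8 and 34.1 CPM in GSK591 (log2 -0.21 ± 0.05, edgeR adjusted p = 0.00118). PCNA, the sliding clamp of DNA polymerase, changed little (log2 0.21 ± 0.04, edgeR adjusted p = 0.000150), and E2F7 and CCNE2 were not called. An E2F site, TTTGGCGC or TTTCCCGC on either strand, stood in 19 of 42 matched promoters of this list (45.2%) against 3.37% of all matched genes tested. It stood in 4.93% of promoters of all genes called higher in MS023 and in 2.03% of those called lower. Among genes at least 2-fold higher and at least 2-fold lower, the shares were 3.25% and 1.69%. The promoter of E2F2 (chr1:23531234-23531483, minus strand, GRCh38.p14) is shown for such a site 42 bases before the start, in capitals.
E2F2: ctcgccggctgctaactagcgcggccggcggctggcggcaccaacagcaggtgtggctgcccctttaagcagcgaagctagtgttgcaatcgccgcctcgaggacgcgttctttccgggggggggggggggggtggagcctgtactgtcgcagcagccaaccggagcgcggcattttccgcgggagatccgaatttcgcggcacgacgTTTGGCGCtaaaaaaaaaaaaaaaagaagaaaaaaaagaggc

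Every measured gene of G2 and mitosis was higher in MS023, 48 of 48, with a median of 0.75 and a range of 0.19 to 1.52. Summed, they reached 6827 to 7042 CPM in MS023 and 4087 to 4218 CPM in GSK591, and 7727 to 8067 CPM in DMSO. MYBL2 (ENSG00000101057, hg19 chromosome 20, 42295754 to 42345136), the B-MYB factor that switches on mitotic genes, had 153, 157 and 160.4 CPM in MS023 and 59.7, 51.3 and 52.7 CPM in GSK591. It showed the largest change of the list and no overlap (log2 1.52 ± 0.05, edgeR adjusted p = 1.68e-12), with DMSO at 121 ± 2.21 CPM. TOP2A, which untangles chromosomes, stood at 1022 ± 36.5 CPM against 473 ± 3.32 CPM (log2 1.11 ± 0.03, edgeR adjusted p = 1.4e-12). MKI67, the proliferation antigen, was 1.58-fold higher and CENPI, a centromere protein, 2.32-fold higher (edgeR adjusted p = 1.95e-08 and 7.17e-11).

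CCNB2, a mitotic cyclin, had 103, 97.3 and 99.3 CPM in MS023 and 51.3, 48.0 and 50.5 CPM in GSK591, 2.0-fold apart (log2 1.00 ± 0.04, edgeR adjusted p = 2.75e-11). The cell cycle homology region TTTGAA, the CHR element known from such promoters, was present on either strand in 26 of 40 matched promoters of the list (65.0%) against 10.3% of all matched genes tested. Among all genes called higher and lower in MS023 the shares were 10.5% and 10.1%. Of promoters of genes at least 2-fold higher 14.6% held the element, and of those at least 2-fold lower 12.2%. The CCNB2 promoter (chr15:59104896-59105145, plus strand, GRCh38.p14) carries it 29 bases before the start, in capitals.
CCNB2: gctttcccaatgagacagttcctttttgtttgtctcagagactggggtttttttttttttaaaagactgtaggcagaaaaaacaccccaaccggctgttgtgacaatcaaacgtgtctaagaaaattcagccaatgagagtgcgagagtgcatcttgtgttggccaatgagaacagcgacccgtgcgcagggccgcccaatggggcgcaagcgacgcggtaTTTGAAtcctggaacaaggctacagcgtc

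Members of the homologous recombination and Fanconi pathways, which repair breaks and crosslinks during replication, were higher in 30 of 39 and lower in 4, with a median of 0.44. FANCI and FANCD2, the pair that is ubiquitinated at crosslinks, were 2.26-fold and 2.26-fold higher (log2 1.18 ± 0.04 and 1.18 ± 0.04, edgeR adjusted p = 9.22e-13 and 9.72e-13). FANCI had 165, 160.5 and 165 CPM in MS023 and 73.3, 71.3 and 72.1 CPM in GSK591, and DMSO at 179 ± 5.49 CPM lay above both. The 4 lower genes included RAD50, which binds DNA ends, and ATM, a kinase that breaks activate. RAD50 was lower with a log2 change of -0.77 ± 0.04 and ATM with -0.47 ± 0.04 (edgeR adjusted p = 5.78e-10 and 6.03e-08), as were RAD51C and BRCA2 by smaller amounts. In FPKM 2 of the 39 genes were lower.

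Among 13 measured CDK inhibitors, G1 cyclins and their partners, 8 were higher and 3 lower. CDKN2D and CDKN2C, inhibitors of CDK4 and CDK6, were 2.68-fold and 2.08-fold higher in MS023 (edgeR adjusted p = 2.17e-06 and 4.08e-10), opposite to CDKN1A. CCND2, a D-type cyclin, was nearly confined to GSK591 with 2.14, 2.07 and 2.27 CPM, 261 counts in all, against 0.195, 0.0520 and 0.188 CPM and 20 counts in MS023 (log2 -3.82 ± 0.28, edgeR adjusted p = 1.32e-08). CDK6 and CCND1 were lower with log2 changes of -0.79 ± 0.04 and -0.63 ± 0.03 (edgeR adjusted p = 5.3e-10 and 5.9e-10).

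**Figure D2:**
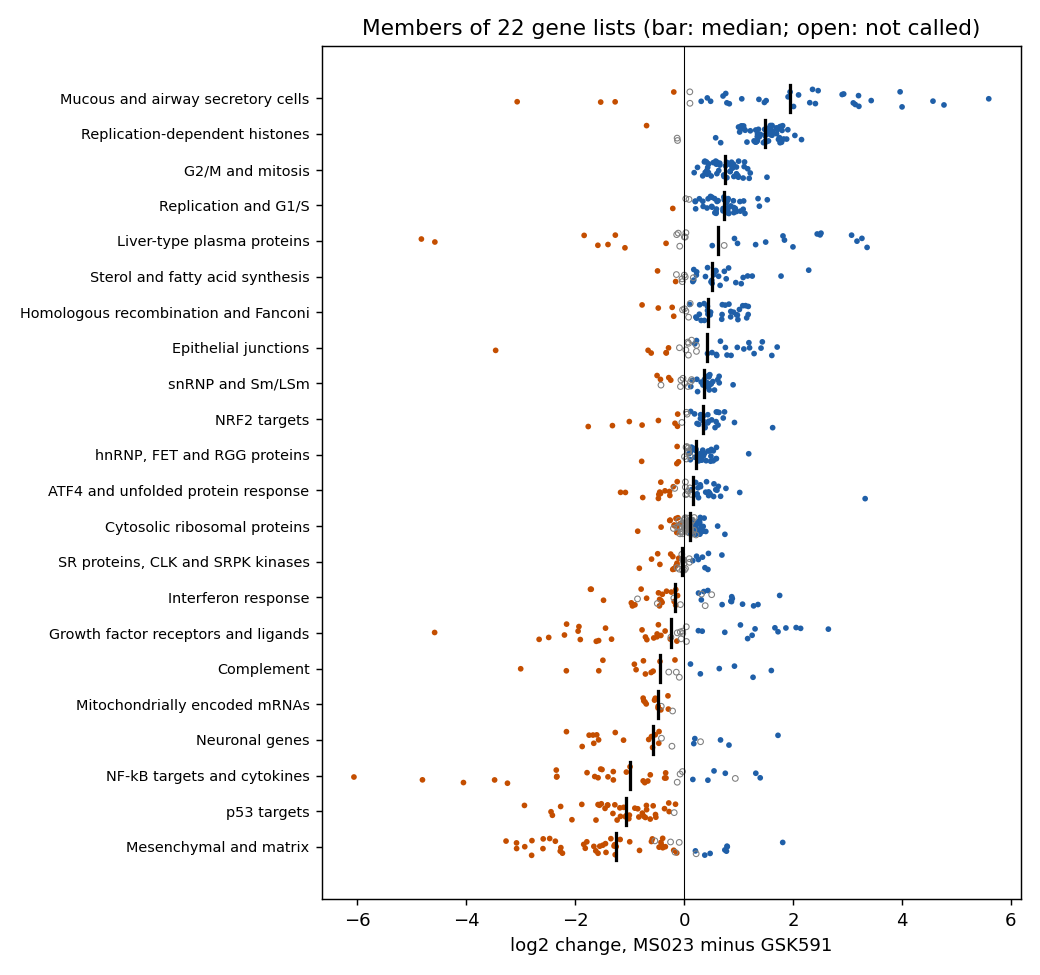
Log2 change (MS023 minus GSK591) of every measured member of the gene lists, 1 point a gene, with the list median as a black bar; filled blue and orange points were called higher and lower, open points were not called. Histone, G1/S and G2/M genes lie almost wholly right of 0 (medians 1.49, 0.74 and 0.75), p53 targets almost wholly left (-1.07), and the mucous list reaches from -3.07 to 5.60.

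Genes of mucous and airway secretory cells had the highest median of the lists and held the largest increase among genes that met the naming rule (a symbol, an average of at least 1 CPM, a call and no overlap). Of 37 measured members 31 were higher in MS023 and 4 lower, with a median of 1.95, and the summed level was 2249 to 2463 CPM in MS023, 683 to 715 CPM in GSK591 and 1571 to 1599 CPM in DMSO. BPIFB1 (ENSG00000125999, hg19 chromosome 20, 31861286 to 31897684), a secreted defence protein of the airways, had 18.3, 19.2 and 18.2 CPM in the MS023 libraries and 0.248, 0.259 and 0.589 CPM in the GSK591 libraries. The difference was 48.4-fold (log2 5.60 ± 0.16, edgeR adjusted p = 5.93e-13), and DMSO lay between at 1.40 ± 0.220 CPM. MUC5B (ENSG00000117983, hg19 chromosome 11, 1244296 to 1283406), a gel-forming mucin, had 161, 179.6 and 170.0 CPM against 12.5, 9.71 and 10.5 CPM. It was 15.7-fold higher in MS023 (log2 3.97 ± 0.13, edgeR adjusted p = 2.76e-12), also above the 37.8 ± 8.16 CPM of DMSO.

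Transcription factors of secretory cells were higher along with these products. SPDEF and FOXA3, which drive goblet cell differentiation, were 8.62-fold and 9.26-fold higher in MS023 (log2 3.11 ± 0.07 and 3.21 ± 0.08, edgeR adjusted p = 3.66e-14 and 2.03e-13). SPDEF had 78.3, 85.6 and 84.4 CPM in MS023 and 10.9, 9.03 and 8.98 CPM in GSK591, on either side of the 34.3 ± 1.73 CPM in DMSO. FOXA1, a pioneer factor of endodermal tissues, stood at 166 ± 1.93 CPM against 31.3 ± 0.607 CPM (log2 2.41 ± 0.04, edgeR adjusted p = 3.95e-15). AGR2, the disulfide isomerase that mucins need, was the most abundant of the secretory genes named here per gene length, at 1317 ± 219 FPKM in MS023 and 315 ± 11.3 FPKM in GSK591 (log2 1.91 ± 0.06, edgeR adjusted p = 1.39e-12 in counts).

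The list was not uniform across mucins. MUC2 was higher (log2 2.93 ± 0.26, edgeR adjusted p = 1.15e-07), and the antigen CEACAM5 was 16.0-fold higher at 4.18 ± 0.791 CPM against 0.247 ± 0.168 CPM (edgeR adjusted p = 3.9e-08). MUC5AC, the other gel-forming mucin of the airways, was 3.86-fold higher in MS023 than in GSK591 (log2 1.95 ± 0.12, edgeR adjusted p = 2.57e-09), but its 47.5, 43.7 and 41.6 CPM in MS023 were not above the 54.8 ± 11.4 CPM of DMSO. In the other direction, the membrane mucin MUC20 and the stomach mucin MUC6 were lower (-3.07 ± 0.36 and -1.53 ± 0.29 on the log2 scale, edgeR adjusted p = 3e-06 and 0.000324). Both were weak, MUC20 at 0.139 ± 0.0365 CPM in MS023 and 1.17 ± 0.0900 CPM in GSK591, and MUC6 at 0.550 ± 0.0566 CPM and 1.58 ± 0.120 CPM.

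Factors that govern the secretory pathway itself were also higher. CREB3L1 (ENSG00000157613, hg19 chromosome 11, 46299212 to 46342972), which is cut loose from the endoplasmic reticulum to switch on secretory genes, had 43.4, 47.0 and 43.1 CPM in MS023 and 4.26, 4.21 and 3.88 CPM in GSK591. XBP1 (ENSG00000100219, hg19 chromosome 22, 29190543 to 29196585), the factor that expands the endoplasmic reticulum in secretory cells, had 680.4, 663 and 671 CPM against 74.5, 61.7 and 64.8 CPM. The groups were far apart, 10.8-fold for CREB3L1 (log2 3.44 ± 0.11, edgeR adjusted p = 2.32e-12) and 10.0-fold for XBP1 (log2 3.33 ± 0.06, edgeR adjusted p = 1.24e-14), and DMSO lay between, at 8.46 ± 1.94 CPM and 212 ± 9.34 CPM.

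The machinery downstream of these factors differed far less. Of 55 measured genes of translocation into the endoplasmic reticulum and transport to the Golgi 29 were higher and 12 lower, with a median of 0.13. RPN2, a subunit of the enzyme that attaches N-glycans, was 1.77-fold higher (log2 0.82 ± 0.04, edgeR adjusted p = 5.85e-11), whereas TRAM1, a protein of the translocation channel, was 1.85-fold lower (log2 -0.89 ± 0.04, edgeR adjusted p = 5.42e-11). In the list of ATF4 and unfolded protein response genes 23 of 44 were higher and 13 lower (median 0.17). Higher members included the chaperones HYOU1 with a log2 change of 1.02 ± 0.03 and HSPA5 with 0.54 ± 0.03 (edgeR adjusted p = 1.92e-12 and 1.91e-09). Lower members included the stress protein SESN2 with a log2 change of -1.08 ± 0.06, the transporter SLC7A11 with -0.47 ± 0.03 and DDIT3 with -0.45 ± 0.12 (edgeR adjusted p = 1.24e-09, 9.98e-09 and 0.00565). The lipoprotein receptor VLDLR, also of this list, was lower with a log2 change of -1.17 ± 0.06 (edgeR adjusted p = 3.41e-10).

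Plasma proteins that the liver makes and that A549 cells also express were split. Of 30 measured genes 15 were higher in MS023 and 8 lower, with a median of 0.63 that fell to zero (-0.00) with a filter of 1 CPM in 3 libraries. Fibrinogen led the higher group. FGB (ENSG00000171564, hg19 chromosome 4, 155484108 to 155492238), its beta chain, had 455, 443 and 448 CPM in MS023 and 51.0, 42.6 and 46.3 CPM in GSK591. It was 9.63-fold higher (log2 3.27 ± 0.07, edgeR adjusted p = 4.14e-14), and DMSO stood between at 257 ± 24.5 CPM. The gamma chain FGG and the alpha chain FGA were higher with log2 changes of 2.44 ± 0.06 and 1.5 ± 0.04 (edgeR adjusted p = 5.12e-14 and 8.08e-13). Carriers of metals were higher as well: transferrin (TF) was 10.3-fold and ceruloplasmin (CP) 9.04-fold higher (edgeR adjusted p = 2.51e-11 and 2.15e-13). Clotting factors were divided, with F7 higher with a log2 change of 3.08 ± 0.17 and F5 lower with a log2 change of -1.58 ± 0.16 (edgeR adjusted p = 5.75e-10 and 4.53e-07).

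Complement leaned the other way, with 6 of 21 measured genes higher and 12 lower and a median of -0.44. C3 (ENSG00000125730, hg19 chromosome 19, 6677715 to 6730573), the central component, had 9.99, 11.3 and 10.6 CPM in MS023 and 86.6, 84.4 and 83.6 CPM in GSK591. The groups were 8.01-fold apart (log2 -3.0 ± 0.05, edgeR adjusted p = 3.95e-15), and DMSO at 65.3 ± 1.88 CPM stood nearer to GSK591. C1S, a protease that starts the classical pathway, was at 50.1 ± 0.615 CPM against 224 ± 6.93 CPM (log2 -2.16 ± 0.04, edgeR adjusted p = 4.82e-15), with DMSO between at 126 ± 1.55 CPM. The protease CFD was higher, with a log2 change of 1.27 ± 0.09 (edgeR adjusted p = 7.77e-09).

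Targets of NF-kB, the inflammatory transcription factor, and cytokines were lower in MS023 in 25 of 35 measured genes and higher in 6, with a median of -0.99. VCAM1 (ENSG00000162692, hg19 chromosome 1, 101185298 to 101204601), an adhesion molecule of inflamed tissue, was the gene with the largest decrease under the naming rule. It had 0.0195, 0.0781 and 0.0235 CPM in MS023, 5 counts in all, and 2.42, 2.63 and 3.10 CPM in GSK591, 332 counts. That is a 67.0-fold fitted difference between low levels (log2 -6.07 ± 0.32, edgeR adjusted p = 3.75e-10), and DMSO stood between at 0.551 ± 0.0486 CPM. TNFRSF9 (ENSG00000049249, hg19 chromosome 1, 7979907 to 8000926), a costimulatory receptor, had 0.234, 0.0781 and 0.118 CPM and 3.88, 4.96 and 4.01 CPM in the same order, 20 against 520 counts (log2 -4.81 ± 0.27, edgeR adjusted p = 6.9e-10). BCL2A1, a survival factor that NF-kB induces, was 27.6-fold lower (log2 -4.79 ± 0.25, edgeR adjusted p = 3.41e-10).

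Of the cytokines, IL8 (now CXCL8) had 1.58, 1.35 and 1.06 CPM in MS023 and 5.93, 7.38 and 7.02 CPM in GSK591, with no overlap (log2 -2.34 ± 0.14, edgeR adjusted p = 1.42e-09). IL1B and IL1A were lower as well (-3.24 ± 0.33 and -3.48 ± 0.42 on the log2 scale, edgeR adjusted p = 6.38e-07 and 3.86e-06), at 16 against 141 and 7 against 74 counts. For each of these cytokines DMSO lay between the inhibitors, at 3.44 ± 0.250 CPM for IL8, 0.348 ± 0.0808 CPM for IL1B and 0.325 ± 0.0568 CPM for IL1A. BIRC3, an inhibitor of apoptosis, was lower at 52.5 ± 1.28 CPM against 129 ± 11.9 CPM (log2 -1.30 ± 0.06, edgeR adjusted p = 6.72e-11), as was NFKB2, a subunit of NF-kB, with a log2 change of -1.58 ± 0.04 (edgeR adjusted p = 1.58e-13). For BIRC3 and NFKB2 DMSO lay below both inhibitors, at 35.8 ± 1.94 CPM and 28.6 ± 1.03 CPM. PTGS2, the inducible cyclooxygenase, went against the list at 160.3, 166 and 166 CPM in MS023 and 66.4, 62.4 and 68.4 CPM in GSK591 (log2 1.32 ± 0.04, edgeR adjusted p = 1.12e-12). The death ligand TNFSF10 was also higher (log2 1.40 ± 0.20, edgeR adjusted p = 2.34e-05).

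The NF-kB consensus site on either strand stood in 15 of 27 matched promoters of this list of known targets (55.6%), whatever their change, and in 12.9% of all matched genes tested. Among promoters of all genes at least 2-fold lower in MS023 it stood in 14.7%, and in 14.3% of those at least 2-fold higher. The promoters of VCAM1 (chr1:100719492-100719741, plus strand) and TNFRSF9 (chr1:7940840-7941089, minus strand), both on GRCh38.p14, are shown because these genes had the largest decreases of the list. Capitals mark the match 62 bases before the start of VCAM1 and 2 overlapping matches at 74 and 73 bases before that of TNFRSF9.
VCAM1: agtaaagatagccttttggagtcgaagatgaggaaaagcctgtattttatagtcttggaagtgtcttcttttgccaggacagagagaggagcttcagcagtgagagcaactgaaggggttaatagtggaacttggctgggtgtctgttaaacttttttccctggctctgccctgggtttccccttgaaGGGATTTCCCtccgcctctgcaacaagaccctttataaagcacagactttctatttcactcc
TNFRSF9: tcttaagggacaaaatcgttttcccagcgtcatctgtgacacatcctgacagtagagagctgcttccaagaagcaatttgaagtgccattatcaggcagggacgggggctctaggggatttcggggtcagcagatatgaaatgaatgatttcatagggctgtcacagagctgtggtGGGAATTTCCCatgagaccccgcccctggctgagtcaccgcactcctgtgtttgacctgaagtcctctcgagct

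Interferon-stimulated genes moved in both directions, 13 of 40 higher and 20 lower, with a median of -0.17. The sensor DDX58 (RIG-I) had 6.79, 5.80 and 7.31 CPM in MS023 and 17.9, 19.5 and 18.3 CPM in GSK591, 2.79-fold lower (log2 -1.48 ± 0.08, edgeR adjusted p = 6.14e-10). The GTPase GBP2 was lower with a log2 change of -1.72 ± 0.22 (edgeR adjusted p = 6.96e-06). Higher in MS023 were the nuclease ISG20, at 18.1, 16.8 and 16.1 CPM against 4.97, 5.76 and 4.40 CPM (log2 1.76 ± 0.09, edgeR adjusted p = 1.8e-10), and OASL, an antiviral protein related to the oligoadenylate synthetases (log2 1.36 ± 0.15, edgeR adjusted p = 1.73e-06). For ISG20 the MS023 level was close to that of DMSO (17.1 ± 0.843 CPM), and for DDX58 MS023 was close to the 7.55 ± 0.574 CPM of DMSO. The interferon-stimulated response element stood in 63.3% of 30 matched promoters of the list and in 2.75% of all matched genes tested. In FPKM 12 of 29 measured genes were lower.

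Genes of antigen presentation went both ways in both classes. HLA-DMB (ENSG00000242574, hg19 chromosome 6, 32902406 to 32908847), 1 chain of the HLA-DM dimer that loads peptides onto class II molecules, had 54.3, 50.8 and 51.7 CPM in MS023 and 1.40, 1.76 and 1.68 CPM in GSK591. It was 32.0-fold higher (log2 5.00 ± 0.10, edgeR adjusted p = 1.38e-14), and DMSO stood between at 8.46 ± 1.18 CPM. Its partner HLA-DMA was 6.61-fold higher (log2 2.73 ± 0.06, edgeR adjusted p = 5.12e-14), from 5.49 ± 0.416 CPM in GSK591 and 6.06 ± 0.224 CPM in DMSO to 36.4 ± 0.881 CPM. The class II chaperone CD74 and the class II activator CIITA, with at most 105 counts in a group, were lower instead (log2 -1.23 ± 0.32 and -0.89 ± 0.29, edgeR adjusted p = 0.00379 and 0.0155). The CIITA call ended without GSK591 replicate 2 or MS023 replicate 2 (edgeR adjusted p = 0.0733 and 0.0597). CIITA was also not called by DESeq2 (DESeq2 adjusted p = 0.119) or in unfiltered FPKM (limma adjusted p = 0.0704). In unfiltered FPKM CD74 was not called either (log2 -0.038, limma adjusted p = 0.698). Only these 4 of 13 listed class II genes passed the filter on low counts. In the class I list 10 of 18 were higher and 3 lower: HLA-B was higher with a log2 change of 1.11 ± 0.10, while the peptide transporter TAP1 and the activator NLRC5 were lower with log2 changes of -0.56 ± 0.06 and -0.60 ± 0.08 (edgeR adjusted p = 1.98e-07, 5.21e-07 and 1.56e-05). HLA genes are close relatives, and reads shared between them make single values uncertain.

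Mesenchymal and matrix genes had the lowest median of all lists other than mitochondrial rRNA, -1.26, with 41 of 54 measured genes lower in MS023 and 8 higher. PLAU (ENSG00000122861, hg19 chromosome 10, 75668935 to 75677255), the urokinase that cuts plasminogen at the cell surface, had 10.8, 10.5 and 10.6 CPM in MS023 and 97.3, 103 and 107 CPM in GSK591. The groups were 9.65-fold apart (log2 -3.27 ± 0.05, edgeR adjusted p = 3.83e-15) on either side of the 43.5 ± 1.46 CPM in DMSO. The muscle actin ACTA2 was 8.44-fold and the matrix protein SPARC 6.94-fold lower (edgeR adjusted p = 1.88e-11 and 1.64e-14).

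Not all of this list is mesenchymal in the strict sense, since its lower members include the epithelial integrin ITGB6 and the basal cell collagen COL17A1 (log2 -3.08 ± 0.19 and -2.80 ± 0.20, edgeR adjusted p = 1.83e-09 and 1.22e-08). Vimentin (VIM), the intermediate filament that defines mesenchymal cells, was only 1.5-fold lower, at 455 ± 6.76 CPM against 681 ± 6.96 CPM (log2 -0.58 ± 0.03, edgeR adjusted p = 1.61e-09). Against the list went the fibrillar collagen COL1A1, with 23.8, 26.6 and 24.7 CPM in MS023 and 8.08, 6.84 and 6.61 CPM in GSK591 (log2 1.81 ± 0.08, edgeR adjusted p = 5.26e-11), and CTGF, a matrix growth factor (log2 0.78 ± 0.07, edgeR adjusted p = 7.41e-08). The transcription factor TWIST1 was higher with a log2 change of 0.79 ± 0.14 at 3.73 ± 0.255 CPM (edgeR adjusted p = 0.000137).

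Epithelial junction genes leaned upwards, 19 of 33 higher and 6 lower, with a median of 0.43. EPCAM (ENSG00000119888, hg19 chromosome 2, 47572297 to 47614740), an epithelial adhesion molecule, had 21, 19.6 and 22.5 CPM in MS023 and 6.40, 6.21 and 6.67 CPM in GSK591, 3.27-fold apart (log2 1.71 ± 0.08, edgeR adjusted p = 1.49e-10), with DMSO between at 13.5 ± 1.57 CPM. The tight junction proteins CLDN7 and TJP3 were higher with log2 changes of 1.61 ± 0.16 and 1.44 ± 0.06 (edgeR adjusted p = 3.83e-07 and 2.76e-11). CDH1, E-cadherin, did not follow: it had 87.6, 91.2 and 87.7 CPM in MS023 and 113, 113 and 109 CPM in GSK591 and was 1.25-fold lower (log2 -0.33 ± 0.03, edgeR adjusted p = 5.41e-07). P-cadherin (CDH3) was lower with a log2 change of -3.46 ± 0.36 (edgeR adjusted p = 8.05e-07), at 11 against 115 counts.

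Keratins, the intermediate filaments of epithelia, were divided, with 4 of 11 higher and 6 lower. KRT20 and KRT4, known from intestinal and from oesophageal epithelium, were 10.0-fold and 4.45-fold higher (edgeR adjusted p = 2.42e-12 and 2.29e-14), while KRT19 and KRT80 were lower with log2 changes of -1.53 ± 0.07 and -1.23 ± 0.04 (edgeR adjusted p = 5.03e-11 and 4.31e-12). KRT4 had 195, 204 and 199.9 CPM in MS023 and 47.6, 41.6 and 45.2 CPM in GSK591, and DMSO at 40.1 ± 1.05 CPM was close to GSK591. KRT19 had the opposite layout, with MS023 at 56.2 ± 2.14 CPM near the 52.1 ± 7.02 CPM of DMSO and GSK591 at 163 ± 1.96 CPM.

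Growth factors and their receptors were lower in 23 of 44 and higher in 13, with a median of -0.25. Within the ERBB family the members went opposite ways. EGFR (ENSG00000146648, hg19 chromosome 7, 55086714 to 55324313) had 70.0, 61.0 and 63.1 CPM in MS023 and 397, 434 and 399 CPM in GSK591, 6.33-fold lower (log2 -2.66 ± 0.05, edgeR adjusted p = 1.98e-14), with DMSO at 164 ± 4.28 CPM between them. Its ligand TGFA was lower too, 4.74 ± 0.517 CPM against 21.7 ± 1.05 CPM (log2 -2.20 ± 0.08, edgeR adjusted p = 1.24e-11). ERBB3 and ERBB2, the partner receptors, were higher: ERBB3 had 53, 55.3 and 53.2 CPM in MS023 and 12.6, 12.4 and 13.7 CPM in GSK591 (log2 2.06 ± 0.05, edgeR adjusted p = 6.14e-14), and ERBB2 was 2.38-fold higher (log2 1.25 ± 0.04, edgeR adjusted p = 1.58e-12). NRG1, a ligand of ERBB3, was lower with a log2 change of -1.91 ± 0.04 (edgeR adjusted p = 9.53e-15).

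FGF signalling split likewise, with the receptor FGFR3 higher with a log2 change of 1.87 ± 0.06 and the ligand FGF2 lower with a log2 change of -1.61 ± 0.04 (edgeR adjusted p = 2.75e-12 and 3.14e-13). HGF, the ligand of MET, was 6.28-fold higher (log2 2.65 ± 0.12, edgeR adjusted p = 9.58e-11), and TGFB2 4.46-fold lower (log2 -2.16 ± 0.05, edgeR adjusted p = 3.53e-14). GREM1, which binds and blocks BMPs, stood at 28.6, 41.8 and 42.1 CPM in MS023 and 7.39, 9.03 and 8.87 CPM in GSK591, both above the 3.17 ± 0.392 CPM of DMSO (log2 2.14 ± 0.13, edgeR adjusted p = 2.14e-09 between inhibitors). FGFBP1, a carrier of FGF, was lower with a log2 change of -2.49 ± 0.28 (edgeR adjusted p = 1.74e-06).

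Immediate-early genes, the first answer to growth signals, were balanced at 9 of 26 higher and 10 lower (median -0.03). These shares, 34.6% and 38.5%, are near the 33.6% and 31.7% over all genes. The AP-1 members themselves diverged: FOSL1 and JUN were lower with log2 changes of -1.59 ± 0.05 and -1.5 ± 0.06, and JUND was higher with a log2 change of 1.32 ± 0.09 (edgeR adjusted p = 1.26e-12, 9.96e-12 and 8.35e-09). The phosphatase DUSP1 was 3.49-fold lower, at 44.2 ± 2.53 CPM against 154 ± 3.10 CPM, with DMSO between (82.2 ± 4.74 CPM; edgeR adjusted p = 1.89e-13). KLF2, a factor induced by many signals, was 3.24-fold higher (log2 1.70 ± 0.12, edgeR adjusted p = 7.09e-09).

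**Figure D3:**
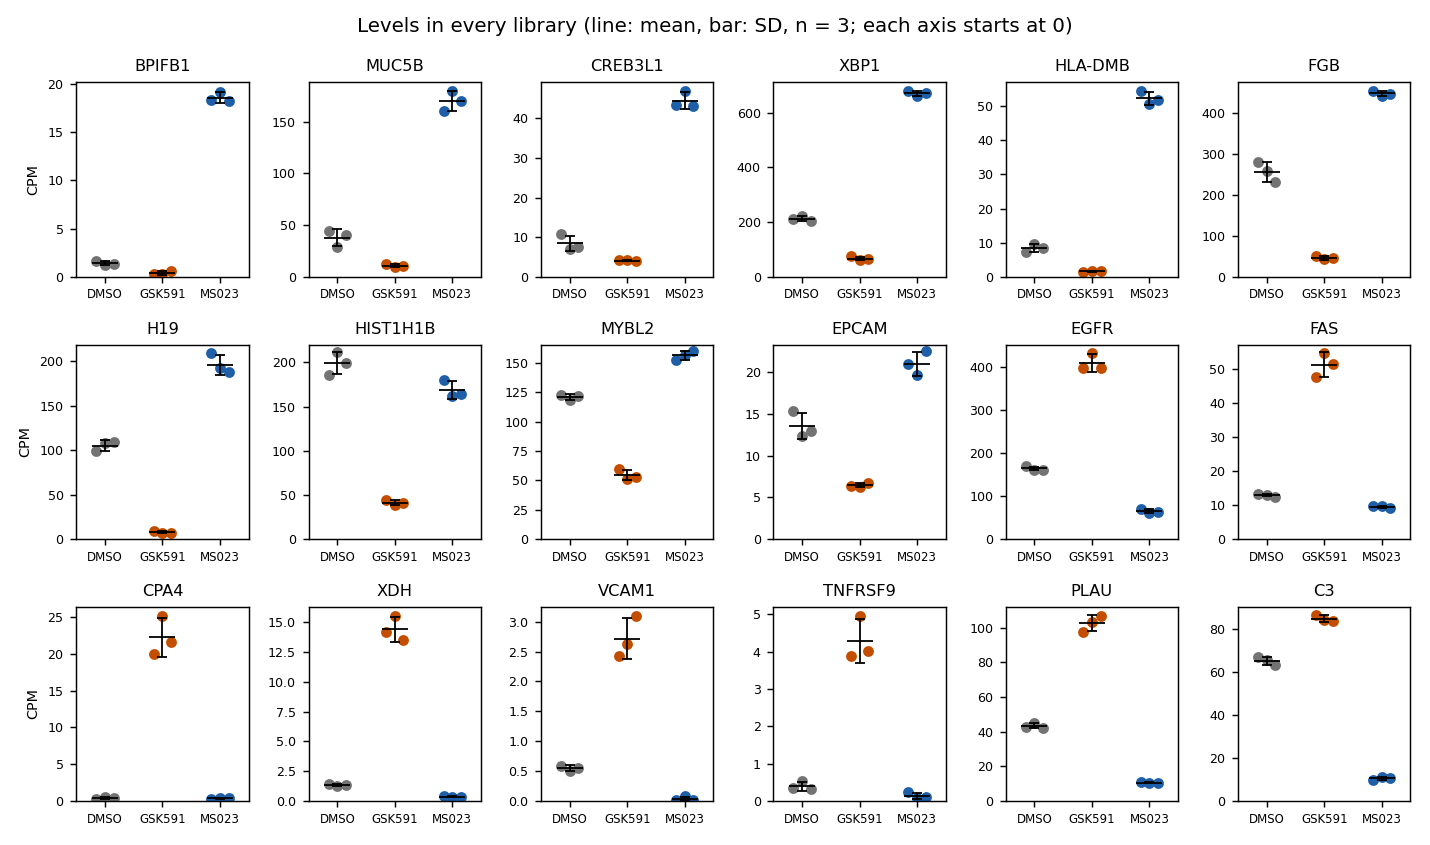
Level of selected genes in each of the 9 libraries, in CPM on linear axes that start at 0, with the mean as a line and the SD as a bar (n = 3 a group). In every panel the 3 MS023 libraries (blue) and the 3 GSK591 libraries (orange) do not overlap; for MUC5B and XBP1 the DMSO libraries (grey) lie between them, whereas for FAS and CPA4 they lie close to MS023.

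Splicing genes were compared because arginine methylation acts on their products. The snRNP proteins, which carry the Sm core that PRMT5 methylates, were higher in MS023 in 25 of 37 and lower in 4, with a median of 0.37. LSM7 and LSM4, members of the related LSm rings, were higher with log2 changes of 0.90 ± 0.06 and 0.65 ± 0.04 (edgeR adjusted p = 1.07e-08 and 2.55e-09). Of the Sm proteins themselves SNRPB and SNRPD1 were higher with log2 changes of 0.56 ± 0.06 and 0.46 ± 0.08 (edgeR adjusted p = 1.15e-06 and 0.000121). SNRPD3 was lower in counts, 7.49 ± 0.818 CPM against 10.6 ± 1.33 CPM (log2 -0.50 ± 0.10, edgeR adjusted p = 0.000456), and higher by 0.20 in the authors' FPKM (limma adjusted p = 0.0149), so its direction depends on the measure. The helicase SNRNP200 was 1.35-fold lower (log2 -0.43 ± 0.03, edgeR adjusted p = 4.54e-08).

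SR proteins and their kinases, which choose splice sites, showed no common direction, 8 of 33 higher and 13 lower with a median of -0.03. In FPKM the same list had 11 higher, 4 lower and a median of 0.04. SRSF4 and TRA2B were higher with log2 changes of 0.69 ± 0.04 and 0.45 ± 0.04 (edgeR adjusted p = 8.92e-10 and 7.41e-08). CCNL2, a cyclin whose transcripts are known to keep introns in the nucleus, had 64.2, 71.4 and 68.3 CPM in MS023 and 116, 124 and 121 CPM in GSK591 and was 1.77-fold lower (log2 -0.82 ± 0.06, edgeR adjusted p = 8.05e-09). Its DMSO level of 50.9 ± 4.67 CPM lay below both. SREK1 and the kinase CLK4 were lower with log2 changes of -0.60 ± 0.04 and -0.48 ± 0.06 (edgeR adjusted p = 8.41e-09 and 6.2e-06).

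The hnRNP, FET and other RGG proteins, main substrates of type I enzymes, were higher in MS023 in 33 of 45 and lower in 4, with a median of 0.22. TAF15 (ENSG00000172660, hg19 chromosome 17, 34136459 to 34191619), an RNA-binding protein of the FET family, had 171, 173 and 172 CPM in MS023 and 81.1, 76.1 and 69.3 CPM in GSK591, 2.28-fold higher (log2 1.19 ± 0.05, edgeR adjusted p = 2.84e-11). For TAF15 the MS023 libraries lay near DMSO (163 ± 5.27 CPM). HNRNPL was higher with a log2 change of 0.59 ± 0.04 and HNRNPA1 with 0.49 ± 0.03 (edgeR adjusted p = 4.72e-09 and 2.8e-09). The stress granule protein G3BP2 was lower with a log2 change of only -0.13 ± 0.04 (edgeR adjusted p = 0.0143), and its call ended without GSK591 replicate 2, MS023 replicate 2 or MS023 replicate 3 (edgeR adjusted p = 0.0507, 0.0693 and 0.0686).

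Host genes of small nucleolar RNAs were mixed, 6 of 19 higher and 8 lower, and the sign of their median of 0.01 turned under RLE scaling (-0.01) and total counts (-0.02). In FPKM 4 were higher and 3 lower. MEG3, an imprinted noncoding RNA of that list, had 12.4, 13.7 and 13.7 CPM in MS023 and 43.1, 47.6 and 43.7 CPM in GSK591, 3.38-fold lower (log2 -1.76 ± 0.09, edgeR adjusted p = 3.77e-10), and MS023 was close to DMSO at 11.6 ± 2.18 CPM. GAS5 was lower with a log2 change of -0.43 ± 0.04, and DANCR and SNHG7 higher with log2 changes of 0.63 ± 0.07 and 0.54 ± 0.05 (edgeR adjusted p = 2.95e-07, 9.5e-07 and 2.4e-07).

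Sterol and fatty acid synthesis genes were higher in MS023 in 25 of 33 and lower in 2, with a median of 0.51. SREBF1, the lipogenic factor, was 2.12-fold higher (log2 1.08 ± 0.06, edgeR adjusted p = 3.41e-10), at 274, 287 and 294 CPM in MS023 and 145, 124 and 134 CPM in GSK591, with DMSO at 236 ± 13.8 CPM. ACLY, which makes cytosolic acetyl-CoA, went the other way (log2 -0.49 ± 0.03, edgeR adjusted p = 2.15e-09), at 643 ± 14.8 CPM against 901 ± 16.3 CPM. SC5D, of the last steps of cholesterol synthesis, was lower with a log2 change of -0.16 ± 0.04 (edgeR adjusted p = 0.00647), a call that was not met in FPKM (limma adjusted p = 0.114).

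Targets of NRF2, the antioxidant factor that is highly active in A549 cells because its inhibitor KEAP1 is mutated, were higher in 24 of 35 and lower in 8, with a median of 0.35. NQO1 (ENSG00000181019, hg19 chromosome 16, 69740899 to 69760854), a quinone reductase, had 3541, 3208 and 3229 CPM in MS023 and 1763, 1734 and 1757 CPM in GSK591, 1.90-fold apart (log2 0.93 ± 0.05, edgeR adjusted p = 4.31e-10). GPX2, a glutathione peroxidase of epithelia, was 3.09-fold higher (log2 1.63 ± 0.06, edgeR adjusted p = 1.04e-11). In the lower group stood HMOX1, haem oxygenase, at 70.6 ± 3.86 CPM against 176 ± 4.76 CPM (log2 -1.32 ± 0.04, edgeR adjusted p = 2.01e-12), and the aldose reductase AKR1B1 at 331 ± 7.38 CPM against 1123 ± 36.6 CPM (log2 -1.76 ± 0.03, edgeR adjusted p = 1.38e-14). For HMOX1, MS023 was close to the DMSO level (72.7 ± 2.63 CPM). The antioxidant element TGACNNNGC stood in 29.2% of 24 matched promoters of this list and in 14.8% of all matched genes tested.

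Hypoxia and glycolysis genes were divided, 19 of 36 higher and 11 lower. PDK1, which shuts pyruvate out of mitochondria, was 2.51-fold higher (log2 1.33 ± 0.06, edgeR adjusted p = 6.99e-11) and the phosphofructokinase PFKP 1.97-fold lower (log2 -0.98 ± 0.04, edgeR adjusted p = 2.07e-11). ALDOC, an aldolase, was higher with a log2 change of 1.10 ± 0.21 and the hydroxylase EGLN3 lower with a log2 change of -0.59 ± 0.04 (edgeR adjusted p = 0.000256 and 9.71e-09). Lysosomal genes were higher in 19 of 32 and lower in 9, with the acid glucosidase GAA at a log2 change of 0.97 ± 0.05, the protease CTSA at 0.73 ± 0.04, the cholesterol exporter NPC1 at -0.67 ± 0.04 and the protease CTSB at -0.49 ± 0.04 (edgeR adjusted p = 2.23e-10, 9.33e-10, 1.05e-09 and 2.38e-08).

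Neuronal genes were lower in 15 of 23 and higher in 5, with a median of -0.58. Their median level was 4.36 CPM against 13.5 CPM over all genes tested, although single members such as SNAP25 stood far above that. SNAP25, a protein of vesicle fusion, had 30.0, 25.4 and 25.2 CPM in MS023 and 96.2, 99.7 and 99.5 CPM in GSK591 (log2 -1.87 ± 0.06, edgeR adjusted p = 8.21e-13), and here DMSO at 110.3 ± 1.92 CPM was near GSK591. NEFL, a neurofilament, was 4.47-fold lower (log2 -2.16 ± 0.07, edgeR adjusted p = 1.68e-12), and its MS023 level of 10.4 ± 1.07 CPM was near the 9.94 ± 0.764 CPM of DMSO. The granins' partner SCG5 and the granin CHGB were higher with log2 changes of 1.73 ± 0.20 and 0.82 ± 0.06 (edgeR adjusted p = 2.08e-06 and 2.76e-08).

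Cytosolic ribosomal proteins hardly differed, with a median of 0.10, 31 of 83 higher (37.3%) and 11 lower (13.3%), against 33.6% and 31.7% over all genes. The lower count fell to 7 without GSK591 replicate 1 and to 6 without GSK591 replicate 3, MS023 replicate 2 or MS023 replicate 3, and the higher count rose to 49 without a filter. RPS27L, a paralogue that p53 induces, was 1.8-fold lower (log2 -0.85 ± 0.09, edgeR adjusted p = 9.43e-07), and the paralogues RPL39L and RPL22L1 were higher with log2 changes of 0.75 ± 0.06 and 0.62 ± 0.10 (edgeR adjusted p = 8.67e-08 and 6.98e-05). Mitochondrially encoded mRNAs were lower in 11 of 13 with a median of -0.48, led by MT-ND2, a subunit of complex I, at 278, 379 and 325 CPM in MS023 and 572, 568 and 513 CPM in GSK591 (log2 -0.75 ± 0.10, edgeR adjusted p = 8.02e-06). Summed, they were 5907, 7456 and 6749 CPM in the MS023 libraries, 9169.7, 8879 and 8697 CPM in the GSK591 libraries, and 6201 to 8591 CPM in DMSO, so the groups of inhibitors did not overlap. The GSK591 library with high mitochondrial rRNA was the lowest of its group in these mRNAs.

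Markers of lung lineages and of other cell types were low or mixed. The 14 measured genes of the lung list summed to 303 to 314 CPM in MS023, 339 to 348 CPM in GSK591 and 394 to 401 CPM in DMSO. Of these genes 4 were higher (28.6%) and 5 lower (35.7%), near the 33.6% and 31.7% over all genes. HNF4A, an endodermal factor, was higher with a log2 change of 0.52 ± 0.04 and SOX2, of the proximal airway, with 0.35 ± 0.07, while the alveolar genes ABCA3 and NAPSA were lower with log2 changes of -1.32 ± 0.05 and -0.93 ± 0.18 (edgeR adjusted p = 1.01e-08, 0.000411, 1.09e-11 and 0.000305). Of 6 measured leukocyte markers 5 were lower and 1 higher, and their sum was 22.2 to 23.3 CPM in MS023, 35.3 to 36.6 CPM in GSK591 and 27.1 to 28.7 CPM in DMSO. ITGAM, an integrin of myeloid cells, was lower with a log2 change of -2.16 ± 0.11 and CD68, a lysosomal protein of macrophages, with -0.55 ± 0.05 (edgeR adjusted p = 3.91e-10 and 4.14e-07). Markers of fibroblasts and endothelium, 6 in all, were higher in 3 and lower in 2, with sums of 33.5 to 37.5 CPM in MS023, 27.0 to 28.5 CPM in GSK591 and 21.2 to 23.6 CPM in DMSO. COL1A1, given above, had the largest change of these markers, and THY1 and LUM were lower with log2 changes of -1.69 ± 0.07 and -1.40 ± 0.19 (edgeR adjusted p = 1.41e-11 and 1.13e-05). Any part of these genes in the differences of the immune and matrix lists was not tested.

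Several of the largest differences fell outside the lists. H19 (ENSG00000130600, hg19 chromosome 11, 2016406 to 2022700), an imprinted noncoding RNA of fetal growth, had 209, 192 and 188 CPM in MS023 and 9.32, 6.77 and 7.11 CPM in GSK591, 25.6-fold apart (log2 4.68 ± 0.09, edgeR adjusted p = 1.38e-14). DMSO at 105 ± 5.68 CPM lay between. SLC13A2, a dicarboxylate transporter, had 3.36, 3.98 and 4.11 CPM against 0.124, 0.0706 and 0.109 CPM (log2 5.21 ± 0.26, edgeR adjusted p = 2.09e-10). The secreted glycoprotein AZGP1 was 26.8-fold higher at 2.07 ± 0.293 CPM (log2 4.74 ± 0.32, edgeR adjusted p = 5.64e-09).

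PGM5, a structural relative of phosphoglucomutase found at cell junctions, had 4.14, 6.25 and 6.02 CPM in MS023 and 0.342, 0.188 and 0.349 CPM in GSK591 (log2 4.21 ± 0.24, edgeR adjusted p = 1e-09), and DMSO at 0.203 ± 0.0452 CPM was as low as GSK591. C9orf152, a gene without a well described role, was 21.8-fold higher (log2 4.44 ± 0.14, edgeR adjusted p = 1.91e-12). TOX3, a chromatin protein of epithelial cells, was 11-fold higher at 18.2 ± 0.847 CPM (log2 3.46 ± 0.10, edgeR adjusted p = 3.81e-13). YBX2, a germ cell RNA-binding protein, was 11.8-fold higher at 5.03 ± 0.287 CPM (log2 3.56 ± 0.23, edgeR adjusted p = 3.42e-09).

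Downwards, CPA4 (ENSG00000128510, hg19 chromosome 7, 129932974 to 129964020), a secreted carboxypeptidase, had 0.273, 0.416 and 0.400 CPM in MS023 and 19.9, 25.1 and 21.5 CPM in GSK591. The difference was 62.0-fold (log2 -5.95 ± 0.15, edgeR adjusted p = 1.64e-13), and DMSO at 0.425 ± 0.121 CPM was as low as MS023. XDH (ENSG00000158125, hg19 chromosome 2, 31557187 to 31637581), the enzyme that makes uric acid, had 0.410, 0.338 and 0.329 CPM in MS023 against 14.1, 15.5 and 13.5 CPM, 39.3-fold lower (log2 -5.30 ± 0.13, edgeR adjusted p = 6.37e-14), with 1.37 ± 0.0956 CPM in DMSO. The sarcomere protein MYPN had a like layout, 0.419 ± 0.0521 CPM against 15.2 ± 1.14 CPM and 2.07 ± 0.134 CPM in DMSO (log2 -5.16 ± 0.12, edgeR adjusted p = 6.08e-14).

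CDH4, a neural cadherin, and PTPRN2, a protein of secretory vesicles, were lower than DMSO in MS023 as well. CDH4 had 0.741, 0.312 and 0.353 CPM in MS023, 18.9, 18.7 and 17.6 CPM in GSK591 and 7.26 ± 1.04 CPM in DMSO (log2 -5.22 ± 0.17, edgeR adjusted p = 2.27e-12). PTPRN2 stood at 0.200 ± 0.0472 CPM in MS023 against 6.89 ± 0.264 CPM in GSK591 and 4.90 ± 0.419 CPM in DMSO (log2 -5.06 ± 0.16, edgeR adjusted p = 1.68e-12). The secreted protein CCBE1, the exchange factor DOCK2 and the receptor SLAMF7, the last 2 known from leukocytes, had 7, 10 and 13 counts in MS023 and 315, 301 and 359 in GSK591. They were lower with a log2 change of -5.54 ± 0.27, -4.99 ± 0.28 and -4.88 ± 0.29 (edgeR adjusted p = 1.86e-10, 8.79e-10 and 1.36e-09). The pseudogene POM121L9P, one of several close copies, was 31.0-fold lower (log2 -4.96 ± 0.23, edgeR adjusted p = 8.66e-11).

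Set beside DMSO, a difference between the inhibitors could lie on either side of the untreated level. The medians of both inhibitors against DMSO share the same 3 control libraries, whose plates also received fewer cells, and are given side by side without a test. Over the histones the median was -1.68 for GSK591 and -0.20 for MS023, over G1/S genes -0.69 and 0.01, and over G2/M genes -0.95 and -0.24. For p53 targets the values were 0.88 and -0.11, and for NF-kB targets 0.73 and -0.04. In these lists the GSK591 median was the farther from DMSO, though not every member followed: IL8 stood at 0.98 for GSK591 and -1.36 for MS023. In the mucous list the values were -1.07 for GSK591 and 0.51 for MS023, in the mesenchymal list 0.64 and -0.36, and in the plasma protein list -0.49 and 0.51, on opposite sides of DMSO. In sterol synthesis MS023 was the farther, at 0.29 against -0.20.

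**Figure D4:**
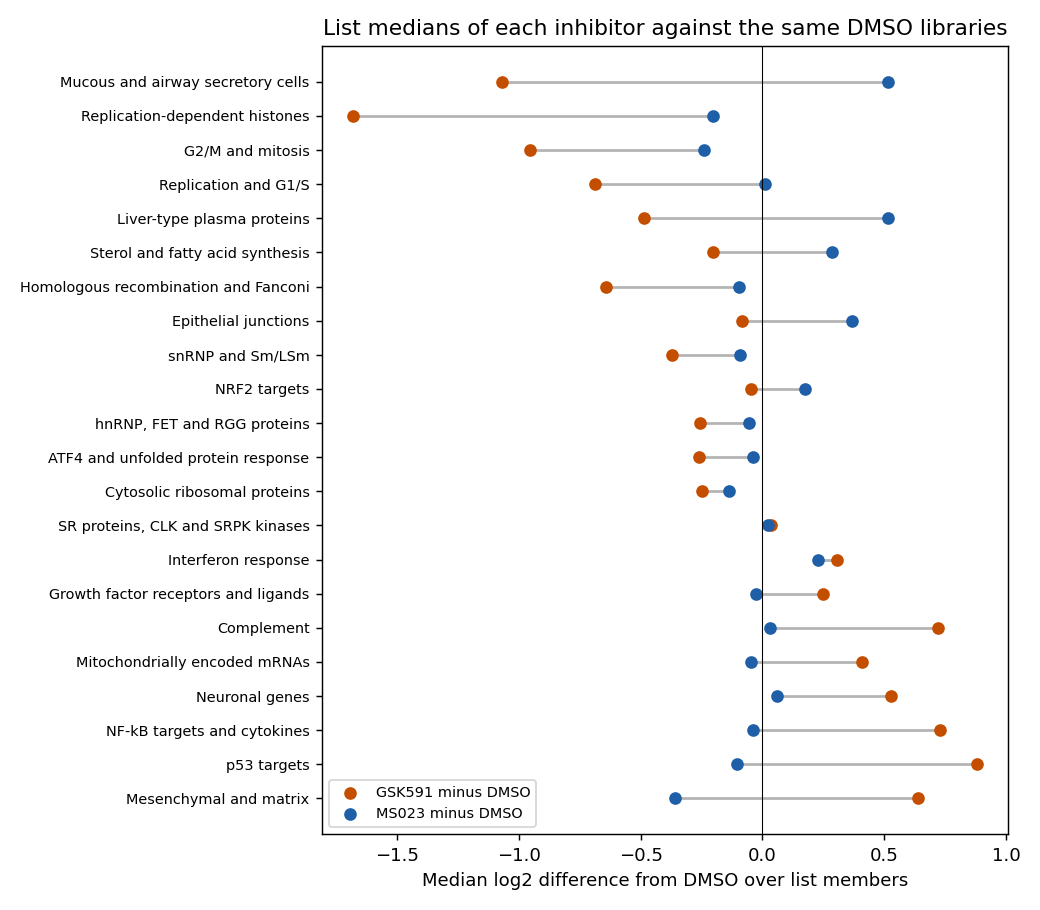
Median log2 difference from DMSO over the measured members of each list, for GSK591 (orange) and MS023 (blue), which share the same 3 DMSO libraries. Points of the histone list lie at -1.68 and -0.20 and those of the p53 list at 0.88 and -0.11, while the mucous and mesenchymal lists have 1 point on each side of 0.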

How the data were processed

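RNA was measured in 9 A549 libraries, and the 3 MS023 and 3 GSK591 libraries were compared. The submitters' processing notes name cutadapt (a read trimmer), STAR (an aligner), featureCounts (a read counter), DESeq2 and the build hg19. Versions, annotation release, strand setting and the making of FPKM were not given in the sources used here. The deposited table holds whole-number counts per gene ID, and the authors' tables of FPKM give a level per length. Of 51796 IDs, 48523 took a symbol and hg19 coordinates from the FPKM tables and 10 a symbol from a table of gene names. Symbols with several IDs count once per ID. Classes come from GENCODE, matched by ID.

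Counts were fitted with edgeR 4.0.16 in R 4.3.3 (quasi-likelihood, TMM scaling, 9 libraries, group as the only term). Genes with few counts were left out (minimum count 10, total 15), leaving 18292, and p-values were adjusted over all of them by Benjamini-Hochberg. The fit was tested on simulated data. FPKM were tested as log2(FPKM + 1) with limma 3.58.1 after a filter of 1 FPKM in 3 libraries, a scale that understates changes of low genes, and DESeq2 1.42.0 served as another alternative. Depths of 31398075 to 51244525 counts set the precision, and common biological variation was 9.42%.

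The members and the gene lists were chosen with earlier results of these data known. Named genes had a symbol, an adjusted p under 0.05, at least 1 CPM on average and no overlap: the 12 largest each way, up to 2 each way per list, and all PRMT and line check genes. Chosen after their values were seen were ACTA2, AGR2, ALDH1A1, BAX, BBC3, BIRC3, CAV1, CCNB2, CCND1, CD74, CDC45, CDH3, CDKN1A, CIITA, CLK4, COL17A1, CP, CTGF, DDIT3, ERBB2, ERBB3, F7, FBN2, FGA, FGF2, FGFR3, FGG, FOXA1, FOXA3, FTL, GAS5, GDF15, HIST2H2BC, HIST2H2BD, HNRNPA1, HSPA5, IL1A, IL1B, IL8, JUN, MALAT1, MDM2, MKI67, MUC2, MUC20, MUC5AC, NFKB2, NRG1, PCNA, PSG4, PSG5, PTX3, RRM2, SLC7A11, SNRPB, SNRPD1, SPARC, SPDEF, SREBF1, TGFA, TGFB2, TJP3, TOP2A, VIM, PSG1, RAD51C, BRCA2, E2F7, CCNE2 and HIST1H4PS1. Some genes are not reported here. Promoters are RefSeq windows on GRCh38.p14.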

Additional observations from a re-analysis of the deposited data

How the results depend on the processing

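The comparison was recomputed in 19 other ways, with 226 genes followed through each. Of these genes 220 were called and 171 kept their side of the threshold and their direction in every setting run. The counts moved by over 1.5 times in these cases. A test against a log2 change of 0.5 (edgeR glmTreat) called 4177 genes, 1740 higher and 2437 lower, which tests a larger change. FPKM with limma gave 2948 lower genes (2940 with a pseudocount of 0.1, 3843 unfiltered). At least 2-fold higher were 388 in FPKM and 387 unfiltered, and at least 2-fold lower 394, 655 with a pseudocount of 0.1, and 396 unfiltered. A filter of 1 CPM in 3 libraries left 1170 at least 2-fold lower, since weak genes were not tested. Leaving out 1 library at a time gave 11211 to 11543 called, 5717 to 5966 higher, 5468 to 5619 lower, 907 to 954 at least 2-fold higher and 1956 to 2091 at least 2-fold lower. With FPKM at a pseudocount of 1, at 0.1 and unfiltered, the sign turned for PRMT2 (0.24, 0.25, 0.24), PRMT5 (0.064, 0.066, 0.064) and SNRPD3 (0.20, 0.21, 0.20), and the cause was not tested. In FPKM the lower members of some lists fell by over 1.5 times in number, to 5 of 35 NRF2 targets, 7 of 35 hypoxia genes, 3 of 18 plasma proteins, 7 of 15 complement genes, 9 of 15 neuronal genes and 3 of 82 ribosomal proteins. The median of all genes was 0.11 in FPKM at a pseudocount of 0.1. With the replicate number as a block 11642 genes were called, 6026 higher and 5616 lower, and among those genes only the call of HIST2H2BC ended. The numbers do not pair the libraries: the deviations of same-numbered libraries correlated at -0.003, -0.195 and 0.218, and not every library correlated best with its own number. Depth limits single values of genes with few counts, such as VCAM1 in MS023.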

Other observations

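PSG4 and PSG5, pregnancy-specific glycoproteins that are normally placental, were read in GSK591 and had no count in MS023. PSG4 had 162 counts over the 3 GSK591 libraries and 0 over the 3 MS023 libraries, at least 59.2-fold lower with a floor of 3 counts over the group. PSG5 had 84 and 0 counts, at least 30.7-fold lower by the same floor. PSG1, the other member tested, stood at 0.38 CPM in GSK591 and 0.0087 CPM in MS023 on average. These genes are close copies of each other, so the split of reads between them is uncertain. The pentraxin PTX3, a soluble pattern receptor of innate immunity, had 37 counts in GSK591 and 0 in MS023, at least 13.5-fold lower.

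CAV1, the coat protein of caveolae, had 90.2, 97.9 and 98.1 CPM in MS023 and 543, 598 and 611 CPM in GSK591, with no overlap (log2 -2.61 ± 0.05, edgeR adjusted p = 1.44e-14), and DMSO at 207 ± 4.28 CPM. FBN2, a fibrillin of microfibrils, stood at 28.1 ± 0.723 CPM in MS023 and 315 ± 23.2 CPM in GSK591 (log2 -3.48 ± 0.05, edgeR adjusted p = 3.95e-15). ALDH1A1, a retinal dehydrogenase that is abundant in A549 cells, had 10815, 11323 and 11363 CPM in MS023 and 8305, 8243 and 8217 CPM in GSK591 (log2 0.44 ± 0.02, edgeR adjusted p = 1.29e-10). FTL, the light chain of ferritin, was at 9661 ± 126 CPM against 5867 ± 222 CPM (log2 0.72 ± 0.02, edgeR adjusted p = 9.4e-13). The nuclear noncoding RNA MALAT1 was at 6144 ± 136 CPM against 9617 ± 799 CPM (log2 -0.65 ± 0.10, edgeR adjusted p = 3.57e-05).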
